A study of Homo sapiens with 9 samples.

Results

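Open chromatin was examined at 6 genes for transcription factors and cofactors of T-cell leukaemia, TAL1, GATA3, MYB, LMO1, LMO2 and LYL1, in the Jurkat line (clone E6-1), an established line of human T-cell leukaemia cells. Accessible DNA, poor in nucleosomes, had been isolated after formaldehyde cross-linking (FAIRE) and sequenced. Peaks of 4 deposited lists that overlapped or touched were joined into merged regions, and a region was taken for a gene if it overlapped the gene body or lay within 50 kb of the transcription start site (TSS), the 5′ end of the gene record of GENCODE release 44 on GRCh37 (Hg19). This gave 25 regions, out of 40703 on the autosomes and the X and Y chromosomes, and 28 further regions on other contigs were left out. MYB had 9 of the 25 regions, LYL1 6, GATA3 4, TAL1 3, LMO2 2 and LMO1 1.

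The study compared chromatin accessibility in a Jurkat model of transcriptional memory. Non-stimulated (NS) cells were compared with cells that received the phorbol ester PMA and the calcium ionophore ionomycin and with cells after stimulus withdrawal (SW), which were washed and kept in culture for 1 day, in part before a second stimulus. Before this, the cells received either DMSO, the vehicle, or 15 µM rottlerin, used in the study as an inhibitor of protein kinase C (PKC), for 1 h. Of 9 samples, peak lists for 4 were used, each from 1 library, and 5 samples, a total input library among them, were not analysed here. The labels give 4 h of stimulation, whereas the methods of the study give a shorter time. All cells are of 1 clone, and no groups have replicates, so no spread between replicates, no test and no p-value can be given for any difference between lists.

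The identity of the lists is in doubt. By the labels, NS cells and SW cells gave 1 list each after either pre-treatment, whereas the methods of the study describe peaks called on DMSO samples of its NS, stimulated, SW and restimulated states. Merging the 4 lists over all contigs gave 40731 regions, the same number as the methods give for those DMSO samples. The study also removed 28 regions and kept 40703, the same numbers as here. The counts are thus those of the DMSO samples, so labels that name SW or rottlerin may be wrong. NS cells after DMSO belong to both readings, but this does not show which list is theirs. All 4 lists, that labelled NS DMSO included, are named here only by their labels. No effect of stimulation or of rottlerin is therefore read from any difference below. Lists are grouped by label (NS and SW, or DMSO and rottlerin) only to describe their values. If the lists are those of the DMSO samples, such groups do not compare these conditions. Values for the 4 lists are given in the order of the labels NS DMSO, SW DMSO, NS rottlerin and SW rottlerin.

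TAL1 and LYL1 are related basic helix-loop-helix proteins that bind E-boxes, short CANNTG motifs, as partners of E proteins such as TCF3 and TCF12. GATA3 binds GATA motifs and is required for T-cell development, and MYB binds its own motif in haematopoietic progenitors and in T-cell leukaemia. LMO1 and LMO2 have LIM domains, do not bind DNA themselves, and link TAL1 or LYL1 to GATA factors through LDB1. Ectopic TAL1, LMO1, LMO2 or LYL1 in the T lineage is a known route to T-cell acute lymphoblastic leukaemia, and TAL1, GATA3 and MYB are known to bind regulatory sequences of one another in such cells.

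The sequences below are the reference sequence (GRCh37, plus strand) of 8 regions on which the results turn, outside exons of the 6 genes. Each is 300 bp long and is centred on the stretch that the most lists cover. Capitals mark GATA motifs (GATA after A or T and before A or G), 3 E-boxes (CAGCTG and CACCTG and CATCTG) and MYB motifs (CAACNG or TAACNG), read on both strands. Marked motifs can overlap or abut, so that 1 run of capitals can hold more than 1. Jurkat cells are known to carry a short insertion upstream of TAL1, which the reference lacks and which was not examined here.
The upstream region of TAL1 is shown because its value differed most from NS in the downward direction, and that of LMO2 because it differed most in the upward direction.
TAL1 −7.1 kb, chr1:47704877-47705176: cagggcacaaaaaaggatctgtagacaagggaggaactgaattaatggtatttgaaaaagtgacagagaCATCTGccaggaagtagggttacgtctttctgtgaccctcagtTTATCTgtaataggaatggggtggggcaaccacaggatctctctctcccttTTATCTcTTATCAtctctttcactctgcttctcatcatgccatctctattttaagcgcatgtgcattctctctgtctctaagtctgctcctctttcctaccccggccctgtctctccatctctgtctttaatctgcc
LMO2 −1.7 kb, chr11:33915368-33915667: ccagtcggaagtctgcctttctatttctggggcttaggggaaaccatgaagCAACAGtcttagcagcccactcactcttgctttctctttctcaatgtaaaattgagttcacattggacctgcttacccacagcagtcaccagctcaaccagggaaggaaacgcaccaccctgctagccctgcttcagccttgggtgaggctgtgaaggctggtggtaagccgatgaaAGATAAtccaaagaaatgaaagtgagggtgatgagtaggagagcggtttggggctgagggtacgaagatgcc
The next 4 were shared by all 4 lists (GATA3 +14.7 kb and MYB +2.3 kb) or found in all lists but that labelled NS DMSO (GATA3 +16.4 kb and MYB +31.6 kb).
GATA3 +14.7 kb, chr10:8102122-8102421: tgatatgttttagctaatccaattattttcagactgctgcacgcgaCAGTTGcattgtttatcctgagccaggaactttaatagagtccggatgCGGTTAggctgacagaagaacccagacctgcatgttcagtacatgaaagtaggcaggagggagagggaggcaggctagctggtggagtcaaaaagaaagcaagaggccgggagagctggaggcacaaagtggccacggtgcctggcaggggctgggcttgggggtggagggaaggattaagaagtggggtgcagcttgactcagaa
MYB +2.3 kb, chr6:135505024-135505323: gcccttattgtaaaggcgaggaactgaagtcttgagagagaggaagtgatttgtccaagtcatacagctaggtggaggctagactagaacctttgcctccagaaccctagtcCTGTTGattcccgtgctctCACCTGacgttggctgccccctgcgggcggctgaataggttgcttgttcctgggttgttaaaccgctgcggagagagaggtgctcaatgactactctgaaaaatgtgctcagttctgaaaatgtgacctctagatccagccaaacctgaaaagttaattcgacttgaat
GATA3 +16.4 kb, chr10:8103301-8103600: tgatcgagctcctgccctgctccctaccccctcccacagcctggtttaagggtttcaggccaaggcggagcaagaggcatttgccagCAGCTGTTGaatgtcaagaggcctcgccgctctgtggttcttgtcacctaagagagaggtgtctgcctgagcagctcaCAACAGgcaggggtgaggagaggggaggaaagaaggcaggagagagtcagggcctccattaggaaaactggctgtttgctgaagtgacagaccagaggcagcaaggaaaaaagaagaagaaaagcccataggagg
MYB +31.6 kb, chr6:135534113-135534412: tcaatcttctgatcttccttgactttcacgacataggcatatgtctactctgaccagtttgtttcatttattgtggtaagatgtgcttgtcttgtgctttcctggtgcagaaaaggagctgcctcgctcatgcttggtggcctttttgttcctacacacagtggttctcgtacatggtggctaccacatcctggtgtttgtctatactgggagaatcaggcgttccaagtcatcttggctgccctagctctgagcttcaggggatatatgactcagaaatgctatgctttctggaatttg
The last 2 had a peak in the list labelled NS DMSO and in no list with an SW label.
MYB +14.3 kb, chr6:135516540-135516839: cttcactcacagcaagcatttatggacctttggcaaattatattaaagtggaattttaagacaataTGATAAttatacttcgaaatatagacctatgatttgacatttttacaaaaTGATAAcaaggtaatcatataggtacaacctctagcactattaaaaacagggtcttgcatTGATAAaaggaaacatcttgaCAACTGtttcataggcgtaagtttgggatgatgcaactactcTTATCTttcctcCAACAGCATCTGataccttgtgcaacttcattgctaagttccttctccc
LMO1 +0.8 kb, chr11:8289269-8289568: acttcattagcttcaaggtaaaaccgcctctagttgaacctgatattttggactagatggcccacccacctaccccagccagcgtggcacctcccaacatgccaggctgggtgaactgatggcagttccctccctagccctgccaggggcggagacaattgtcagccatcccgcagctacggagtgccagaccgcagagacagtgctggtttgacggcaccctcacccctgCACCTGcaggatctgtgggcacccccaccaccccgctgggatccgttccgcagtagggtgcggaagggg

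These windows differed in the motifs they held. In the reference letters, the TAL1 window held 3 GATA motifs, 1 E-box CATCTG and no MYB motif. These letters lack the Jurkat insertion upstream of TAL1, so the motifs of this element in Jurkat cells may differ and are not shown. The MYB +14.3 kb window held 4 GATA motifs, 1 E-box CATCTG and 2 MYB motifs. The LMO2 window held 1 GATA motif and 1 MYB motif. Each GATA3 window held 2 MYB motifs and no GATA motif, and that at +16.4 kb also held 1 E-box CAGCTG. No E-box was marked in the LMO2 window or at GATA3 +14.7 kb, and the MYB +2.3 kb window held 1 MYB motif and 1 E-box CACCTG. The LMO1 window held 1 E-box CACCTG, and the MYB +31.6 kb window held none of the marked motifs. A match is a description of the letters and not a bound site.

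Over the central 300 bp of all 25 regions, motif shares were near or below those of all 40703 regions. These windows are centred on the midpoint of each region, unlike those printed above, and can hold other motifs. At GATA3 +16.4 kb, for example, the central window held 1 GATA motif and no CAGCTG, the reverse of the printed one. The regions at the 6 genes were wider (median 723 bp against 294 bp over all regions), so their central windows can miss peaks. At GATA3 +8.8 kb the window met only the peak of the list labelled NS rottlerin. At LYL1 −14.5 kb it fell between the peaks of NS DMSO and between those of SW rottlerin. The shares below may therefore compare unlike parts of regions. A GATA motif was found in 10 of the 25, against 42.5% of all regions, and a MYB motif in 11, against 54.7%. The E-boxes CAGCTG and CACCTG were each found in 2 of the 25, against 17.1% and 21.4%, and CATCTG in 4, against 21.4%. RUNX motifs (TGTGGT or TGCGGT) were found in 10, against 37.9%, and ETS motifs (CGGAAG or AGGAAG) in 13, against 50.4%. The AP1 motif TGACTCA was found in 2, against 13.2%, and the NFAT motif TGGAAA in 6, against 27.9%. An E-box CANNTG followed after 7 to 9 bases by GATA, the spacing known from TAL1 and GATA complexes, was found in 1 of the 25 (LYL1 −49.3 kb), against 2.7% of all regions. The median GC content was 47.0% at the 6 genes and 46.3% over all regions.

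The lists held 18977, 20132, 23835 and 30409 peaks, with a median column 7 between 4.03 and 4.08. Column 7 is the fold enrichment over total input that MACS2 wrote, a mean over the length of a broad peak, and where a list has several peaks in a region the highest is given. The depth of the libraries is unknown from such lists, and a region without a peak is one not called at that library's depth. Over the 10841 regions shared by all 4 lists, median column 7 of the list labelled SW rottlerin lay 0.12 above that of NS DMSO on the log2 scale, and those of the lists labelled SW DMSO and NS rottlerin lay −0.02 and 0.06 from it. The T-cell label was checked by markers. Of 8 T-cell genes, 7 had a merged region within 1 kb of the TSS, CD2 being the exception, whereas none of 3 B-cell, 3 myeloid and 3 erythroid genes had one, and 45% of all protein-coding genes did. Only 3 of the T-cell genes, CD3D, CD3E and CD28, had it in all 4 lists, LCK and ZAP70 in 3, LAT in 2 and CD3G in 1.

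Of the 25 regions, 9 had a peak in all 4 lists, against 26.6% of all merged regions. A peak in the list labelled NS DMSO was missing from 12, against 53.5% of all regions. The peak was in NS DMSO alone for 2, MYB +30.5 kb and LMO1 +0.8 kb, against 7.83% of all regions. The shares of the 6 genes thus lay near those of all regions for all 3 patterns. Of the 12 regions without an NS peak, 3 were in all of the other lists, 2 in a pair of them and 7 in 1 list. Over the whole genome, 2883 of the 21783 regions without an NS peak were in all of the other lists. The longest list, labelled SW rottlerin, had a peak in 21 of the 25 regions, against 30321 of all 40703, and supplied 6 of those 7. Among all regions, 7419 were in that list alone, against 1759 in SW DMSO alone and 3429 in NS rottlerin alone. Without the list labelled SW rottlerin, the number of regions at the 6 genes lacking an NS peak was 6. The lists labelled NS DMSO, SW DMSO and NS rottlerin had peaks in 13, 14 and 14 of the 25, against 18920, 20050 and 23760 of all 40703.

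**Figure D1:**
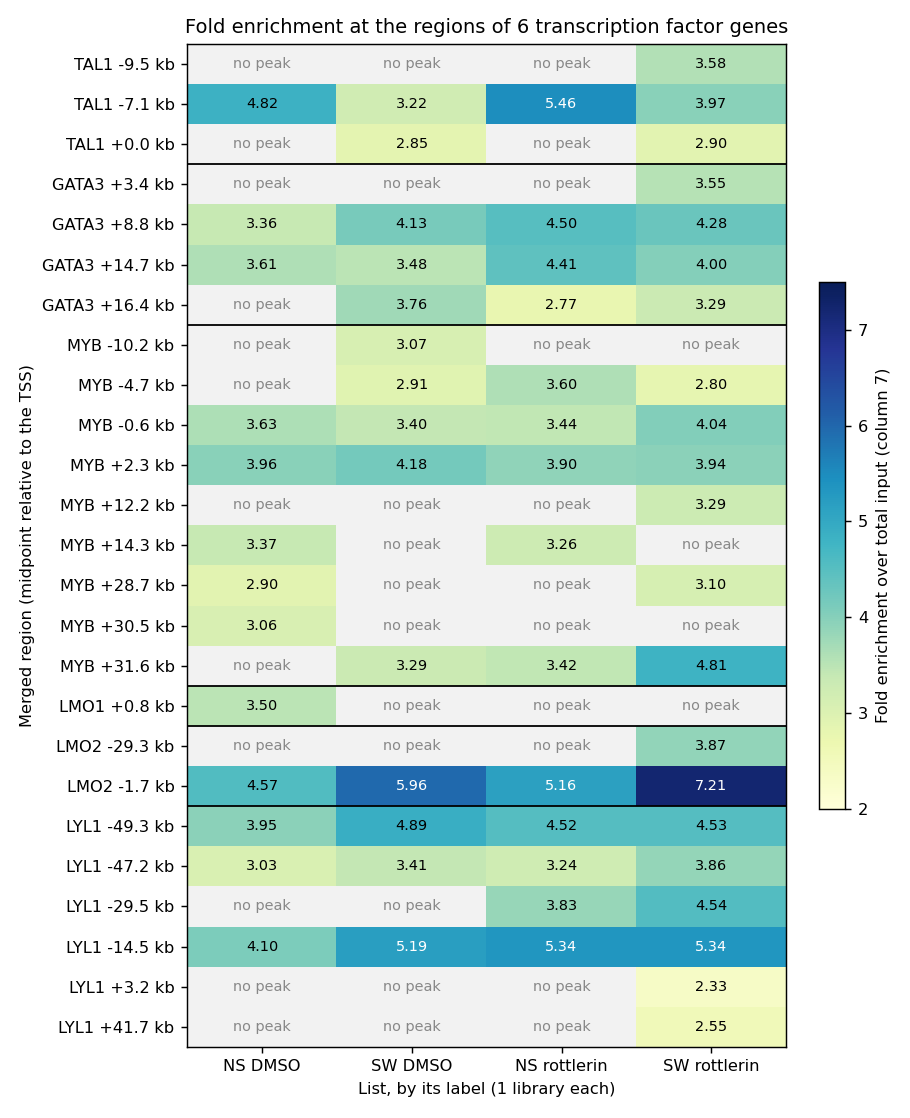
Column 7 (fold enrichment over total input, colour scale and printed value) of the 25 merged regions (rows, by distance of the midpoint from the TSS) in the 4 lists (columns, by label, 1 library each), with grey cells for regions without a peak. The LMO2 region at −1.7 kb reached the highest value, 7.21, in the list labelled SW rottlerin, and 9 rows are filled in all 4 lists.

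The regions differed from all merged regions in size and height. Their median width was 723 bp (range 165 to 2766 bp), against 294 bp over all regions, and for the 9 regions in all 4 lists it was 1181 bp, against 445 bp. Their median enrichment was lower at each number of lists, over only 9, 4, 3 and 9 regions with a peak in 1, 2, 3 and 4 lists. The median of the highest column 7 was 3.29, 3.23, 3.76 and 4.50 for regions with a peak in 1, 2, 3 and 4 lists, against 3.54, 4.06, 4.46 and 5.21 over all regions. Column 7 is a mean over the length of a peak, so width and height are not separate measures, and their relation was not tested. These are descriptions, without a test.

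By midpoint, 12 of the 25 regions lay in introns of their gene, 11 upstream, 1 in an exon and 1 downstream. A transcript start of the gene itself lay inside 4. For 21 regions the nearest start of a protein-coding gene was that of the member, and for 4, all upstream of LYL1, it was another gene's. Among the 21, all 4 lists had a peak at 6 (28.6%), and 11 (52.4%) lacked an NS peak, close to the 26.6% and 53.5% of all regions. Under the same rule, the median over 20110 protein-coding genes was 3 regions. MYB had more regions than 94.6% of these genes, LYL1 than 80.8%, GATA3 than 59.4% and TAL1 than 44.3%, whereas LMO2 had more than 28.9% and LMO1 more than 14.3%. A region within 1 kb of the TSS was found for TAL1, MYB and LMO1, 3 of the 6, against the 45% of all protein-coding genes. This TSS is the end of the gene record, and the canonical transcript starts 9.31 kb from it at GATA3 and 4.84 kb at LMO1. The merged GATA3 region at +8.8 kb held the canonical start, through the peak of the list labelled NS rottlerin, and the LMO1 region did not.

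**Figure D2:**
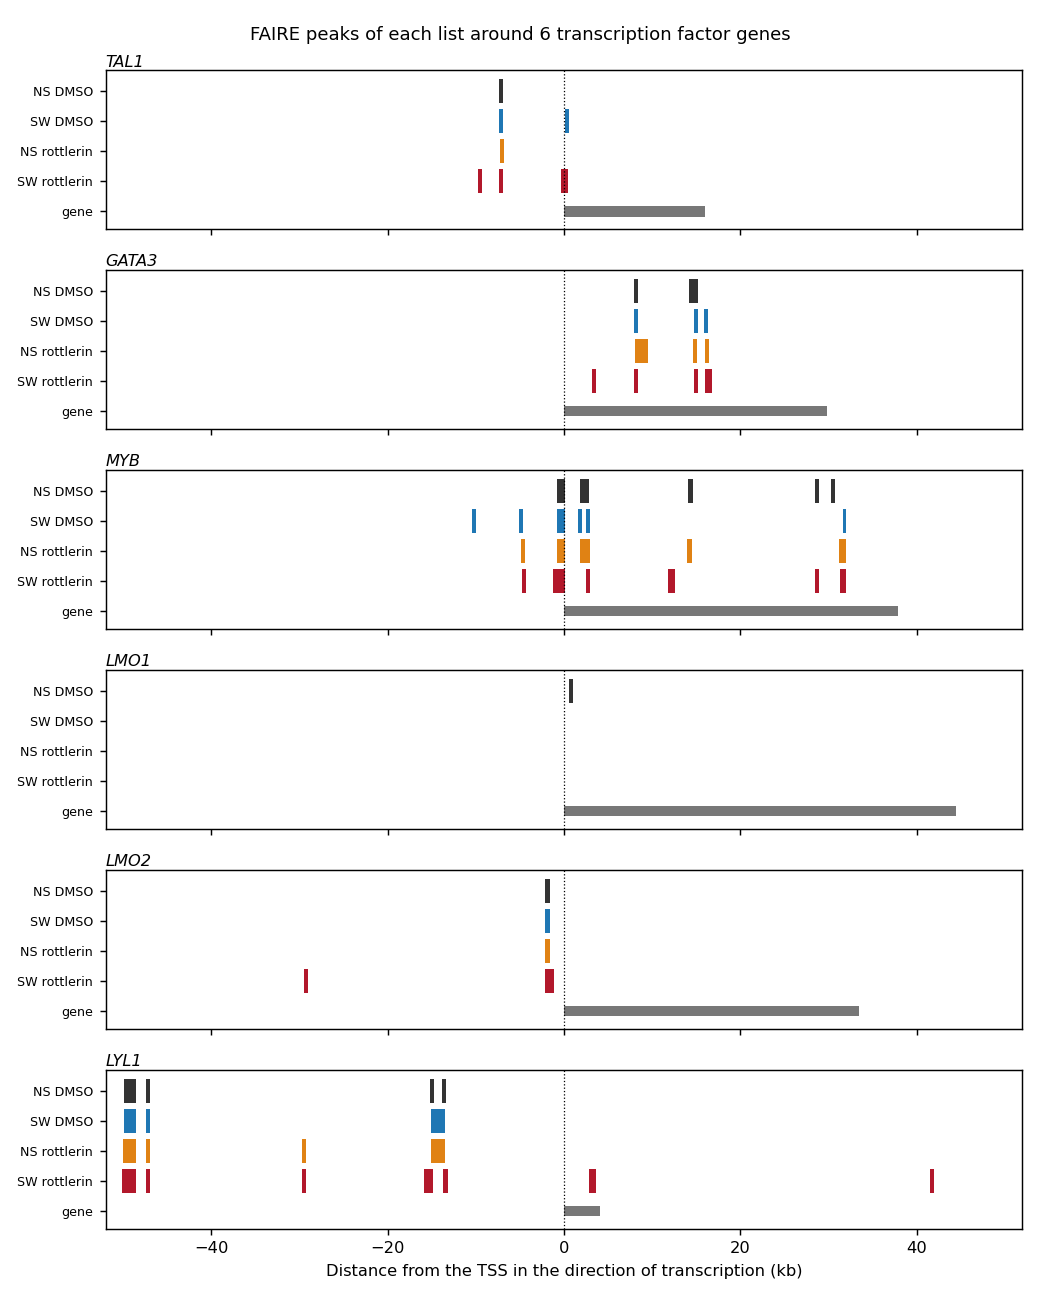
Peaks of the 4 lists (coloured bars) around each gene (grey bar), by distance from the TSS in kb in the direction of transcription, with peaks shorter than 0.45 kb drawn 0.45 kb wide. MYB has 9 regions along the gene and upstream of it, LMO1 has 1, and no list has a peak over the TSS of LYL1.

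TAL1 (chr1:47681962-47697897, minus strand), the helix-loop-helix factor at the head of the complex, had its region of highest enrichment upstream. The region at −7.1 kb (chr1:47704762-47705218, in no gene) had a column 7 of 4.82, 3.22, 5.46 and 3.97. Both lists with an NS label were thus above both lists with an SW label. The ratio to NS DMSO was 0.67 in the list labelled SW DMSO, 1.13 in that labelled NS rottlerin and 0.82 in that labelled SW rottlerin. Of the regions that the lists labelled SW DMSO and NS DMSO shared, 2.25% had a lower ratio. The peak was also shortest in the list labelled SW DMSO, 206 bp against 405 to 442 bp in the others. Within its own list it ranked above 75.2% of peaks in NS DMSO, 14.0% in SW DMSO, 86.3% in NS rottlerin and 47.5% in SW rottlerin. After division of each list by its median over the shared regions, the ratios were 0.68, 1.08 and 0.76.

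The start of TAL1 showed the reverse in presence. The region over the TSS (chr1:47697448-47698251) had a peak in the lists labelled SW DMSO (2.85) and SW rottlerin (2.90) and in neither list with an NS label. Both values are low for their lists, above 3.35% and 4.50% of peaks. The peak of the list labelled SW DMSO was 196 bp long and lay inside the gene, and that of the list labelled SW rottlerin, 804 bp long, reached across the TSS. The nearest NS DMSO peak was that at −7.1 kb, 6.54 kb away. A further region, at −9.5 kb, had a peak in the list labelled SW rottlerin alone (3.58).

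GATA3 (chr10:8087341-8117161, plus strand), the GATA factor of the T lineage, had all 4 of its regions within the gene record, whose 5′ end lies 9.31 kb before the start of the canonical transcript. The region at +8.8 kb (chr10:8095381-8096860) had a column 7 of 3.36, 4.13, 4.50 and 4.28, and NS DMSO was the lowest of the lists. All 4 peaks covered the same 188 bp, in which 1 transcript start of GATA3 lies. Only the peak of the list labelled NS rottlerin, 1480 bp long, reached the canonical start, and the others were 188 to 238 bp long. The ratios to NS DMSO were 1.23, 1.34 and 1.28.

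The intronic region at +14.7 kb (chr10:8101471-8102538) had values of 3.61, 3.48, 4.41 and 4.00. Here the lists with a rottlerin label were above those with a DMSO label, by ratios to NS DMSO of 1.22 and 1.11, and the list labelled SW DMSO stood at 0.97. The next region, at +16.4 kb (chr10:8103319-8104181), had no NS DMSO peak and values of 3.76, 2.77 and 3.29 in the other lists. The nearest NS DMSO peak was 0.83 kb away, in the region at +14.7 kb. A region at +3.4 kb had a peak in the list labelled SW rottlerin alone (3.55).

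**Figure D3:**
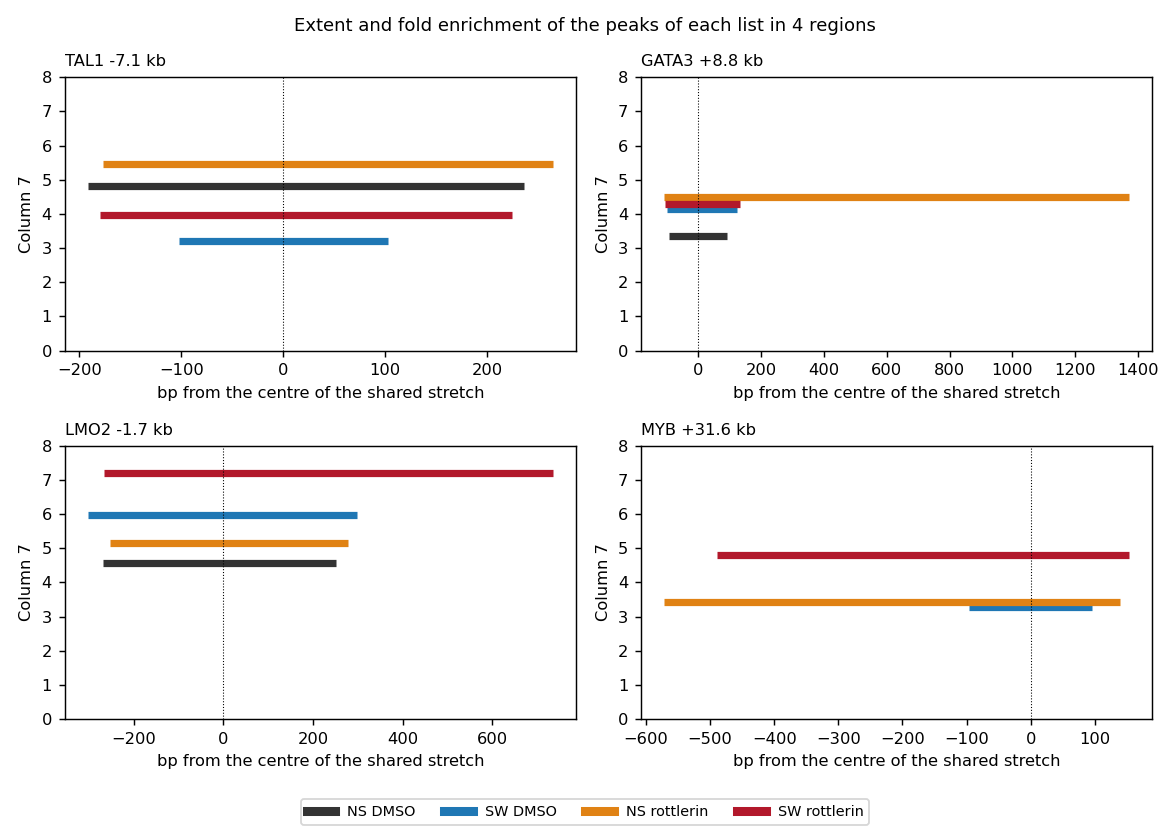
Position (bp from the centre of the stretch shared by the most lists, in the direction of transcription) and column 7 (fold enrichment over total input) of each peak in 4 regions, with 1 line per peak coloured by list. At TAL1 −7.1 kb the list labelled SW DMSO has the lowest and shortest peak (3.22, 206 bp), and at GATA3 +8.8 kb that of the list labelled NS rottlerin is the longest (1480 bp).

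MYB (chr6:135502446-135540311, plus strand), a factor of proliferating progenitors, had 9 regions, from −10.2 to +31.6 kb. The region over the start, at −0.6 kb (chr6:135501241-135502544), had values of 3.63, 3.40, 3.44 and 4.04, and in every list the peak itself held the TSS. The region in the intron at +2.3 kb (chr6:135504173-135505353) had values of 3.96, 4.18, 3.90 and 3.94. These values were the closest among the 4 lists of any region shared by all, with ratios to NS DMSO from 0.99 to 1.06. The first intron of MYB is known for a site at which transcript elongation is blocked. The peaks differed in length more than in height. Those labelled NS DMSO and NS rottlerin spanned 1013 and 1136 bp, the list labelled SW DMSO had a pair of peaks of 236 and 192 bp at either end of this stretch, and that labelled SW rottlerin had 1 peak of 191 bp at its far end.

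The remaining 7 MYB regions each lacked a peak in at least 1 list. Without an NS DMSO peak but in all other lists were the region at −4.7 kb, with values of 2.91, 3.60 and 2.80, and that at +31.6 kb (chr6:135533691-135534416), with values of 3.29, 3.42 and 4.81. At +31.6 kb the list labelled SW rottlerin was thus above the other lists. The nearest NS DMSO peak lay 0.58 kb away, at +30.5 kb, where NS DMSO alone had a peak (3.06). The intronic region at +14.3 kb (chr6:135516350-135517091), which also lies in the antisense gene MYB-AS1 and holds 1 further transcript start of MYB, had a peak in NS DMSO (3.37) and in the list labelled NS rottlerin (3.26) and in neither list with an SW label. The region at +28.7 kb had a peak in NS DMSO (2.90) and in the list labelled SW rottlerin (3.10). The region at −10.2 kb was in the list labelled SW DMSO alone (3.07), and that at +12.2 kb in the list labelled SW rottlerin alone (3.29). FAIRE peaks have no strand, so a region in both MYB and MYB-AS1 cannot be given to either.

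LMO1 (chr11:8245856-8290263, minus strand), 1 of the LIM-only cofactors, had a single region. The canonical transcript starts 4.84 kb inside the gene record. The region lies in an intron at +0.8 kb (chr11:8289281-8289557) and had a peak of 277 bp in NS DMSO alone (3.50), above 25.4% of that list's peaks. In the lists labelled SW DMSO, NS rottlerin and SW rottlerin the nearest peak was 177, 242 and 242 kb away.

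LMO2 (chr11:33880122-33913623, minus strand), the LIM-only cofactor of haematopoiesis, had the highest value of the set. The region at −1.7 kb (chr11:33914783-33915820, in no gene) had a column 7 of 4.57, 5.96, 5.16 and 7.21, so that NS DMSO was lowest and both lists with an SW label were above both with an NS label. The ratios to NS DMSO were 1.31, 1.13 and 1.58. Of the shared regions, 94.3%, 69.4% and 96.9% had a lower ratio in the respective list. Within its own list the peak ranked above 68.2% of peaks in NS DMSO, 93.2% in SW DMSO, 81.1% in NS rottlerin and 97.8% in SW rottlerin. All 4 peaks covered the same 505 bp, and that of the list labelled SW rottlerin was the longest, 1002 bp against 521 to 601 bp. With each list divided by its median over the shared regions, the ratio in the list labelled SW rottlerin was 1.46. A region at −29.3 kb had a peak in the list labelled SW rottlerin alone (3.87).

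LYL1 (chr19:13209847-13213975, minus strand), a helix-loop-helix factor related to TAL1, had 6 regions but none over its TSS in any list. The region within the gene, at +3.2 kb (chr19:13210365-13211087, intron), had a peak in the list labelled SW rottlerin alone, with a column 7 of 2.33, above 0.0592% of that list's peaks. A region at +41.7 kb, in the gene NFIX, was also in that list alone (2.55). The regions with peaks in all 4 lists were nearer to other genes. The region at −14.5 kb (chr19:13227111-13229876), 0.113 kb from the start of TRMT1 and within NACC1, had values of 4.10, 5.19, 5.34 and 5.34. The region at −47.2 kb, 0.016 kb from the start of STX10, had values of 3.03, 3.41, 3.24 and 3.86. The region at −49.3 kb, in IER2, an early response gene, and 2.054 kb from its start, had values of 3.95, 4.89, 4.52 and 4.53. Whether the region at −47.2 kb also holds the start of IER2 was not examined. NS DMSO was the lowest list in all 3. The region at −29.5 kb, in NACC1, had peaks in the lists labelled NS rottlerin (3.83) and SW rottlerin (4.54) alone.

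Ratios to NS DMSO were compared with those over all regions that a list shared with it. Of the shared regions, 0 of 9 differed by at least 1.5-fold in the list labelled SW DMSO, against 3.85% of 12550 regions. In the list labelled NS rottlerin it was 0 of 10, against 4.57% of 13702, and in that labelled SW rottlerin 1 of 10, the LMO2 region, against 6.04% of 14037. This single call was lost when each list was divided by its median over the shared regions. The TAL1 region, with a ratio of 0.668 in the list labelled SW DMSO, lay just inside this threshold. Column 7 was above NS DMSO at 6, 7 and 8 of the shared regions and below it at 3, 3 and 2. After division by each list's median these numbers were 6, 7 and 7 above and 3, 3 and 3 below. The median ratio was 1.12, 1.13 and 1.13 at the 6 genes, against 0.98, 1.04 and 1.06 over all shared regions. Without the 3 regions upstream of LYL1 that lie nearer to TRMT1, STX10 and IER2, it was 1.01, 1.13 and 1.11, over 6, 7 and 7 regions. Of the 9 regions in all 4 lists, 5 were above NS DMSO in all 3 other lists, before and after this division, and none was below in all 3. Over all 10841 such regions, 32.2% were above NS DMSO in all 3 and 18.9% below, and 25.5% and 27.7% after the division. These 5 were GATA3 +8.8 kb, LMO2 −1.7 kb and the LYL1 regions at −14.5, −47.2 and −49.3 kb, so that 2 of them had the member's own start as the nearest. The 3 comparisons share the NS DMSO library and are not independent of each other.

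Genes listed as partners of the 6 factors in T cells were counted under the same rule. Whether their products act in 1 complex with the 6 factors was not examined. The 8 partner genes TCF3, TCF12, LDB1, RUNX1, ETS1, TCF7, LEF1 and BCL11B had 137 regions, of which 35 were in all 4 lists, 59 had no NS peak and 20 were in NS DMSO alone. These are 25.5%, 43.1% and 14.6%, against 26.6%, 53.5% and 7.83% of all regions, so that NS DMSO alone had a higher share here, which was not tested. RUNX1 had 54 of these regions, over a gene record of 1217 kb, and TCF12, an E protein, 28. LDB1, the protein that joins LMO factors into dimers, had 5 regions, 3 of them in all 4 lists, and TCF3, an E protein, had 4. The highest column 7 at LDB1 was 6.41 and at TCF3 7.37, and that at TCF7, a factor of early T cells, was 8.12. Of 6 relatives, LMO3 and MYBL2 had no region, whereas LMO4 had 3, GATA1 and GATA2 had 2 each and TAL2 had 1. Of these 8 regions of relatives, 3 had a peak in all 4 lists, both of GATA1 among them.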

How the data were processed

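FAIRE-seq libraries of Jurkat cells were processed by the authors, who used CutAdapt for trimming, Bowtie2 for alignment to Hg19, Picard for duplicate removal and MACS2 (Broad option, total input as control) for peaks, sample by sample. Versions are not given in the sources used here. Each deposited list gives, per peak, a score (10 times the −log10 q-value without its decimals), the fold enrichment as a ratio (column 7), and the −log10 of the p-value and of the q-value. Depth is unknown, and the highest q-value was between 0.0946 and 0.0983. All peaks on the autosomes, X and Y were used, without a further threshold, also those above the q-value cut-off of 0.05 that the methods of the study give.

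Peaks that overlapped or touched were merged, which was checked with bedtools 2.31.1, and placed with GENCODE release 44 on GRCh37, whose chromosomes hold all 93353 peaks. Sequences were read with pysam 0.24.0. Python 3.11.15, numpy 2.4.6, pandas 2.3.3, samtools 1.23.1 and matplotlib 3.10.9 were used. Merging, gene windows and motif search were tested on simulated data and recovered what was put in. For each gene, the regions named are that over the TSS, that of highest column 7, those in 1 list alone or in all but 1, and that of largest ratio to NS in either direction, and the remaining regions were given as well, a choice made after their values were seen. The 8 sequences were also chosen after the values were seen. The genes, gene lists, motifs and markers were chosen with earlier results of these data known. With 1 library per list no test was run. Other windows, merging, start sites, peak thresholds, list lengths, ratio thresholds and scales were tried, and after the data were seen each list but NS was left out in turn.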

Additional observations from a re-analysis of the deposited data

Results flagged for a closer look

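At 2 of the 9 regions shared by all 4 lists, column 7 moved in opposite directions between the lists labelled NS and SW under the labels DMSO and rottlerin. At GATA3 +8.8 kb the ratio of SW to NS was 1.23 in the lists labelled DMSO and 0.95 in those labelled rottlerin, a ratio of the ratios of 1.29. At MYB −0.6 kb it was 0.94 and 1.18, a ratio of the ratios of 0.797. The differences were not tested, since each list is 1 library, and the labels themselves are in doubt. Over all 10841 regions in 4 lists, 45.4% moved in opposite directions.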

How the results depend on the processing

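Of 68 values recomputed under alternatives, 54 stayed within 1.5 times the reported count and 14 did not. Some could not change, such as a count of 0 at 1.5-fold, which stays 0 at 2-fold. The 54 are therefore not a measure of robustness. With a window of 100 kb, which adds regions by construction, the 6 genes had 49 regions, 17 in all 4 lists, 25 without an NS peak and 4 in NS alone. With the higher-scoring 50% of each list, which holds fewer peaks by construction, the numbers were 12, 3, 7 and 0, where 29.1%, 52.1% and 6.7% of all regions had the last 3 patterns. Without the list labelled SW rottlerin, an alternative chosen after seeing the data, 6 regions lacked an NS peak. At a lower threshold on the ratio to NS (0.32 on the log2 scale) the regions that differed from NS numbered 3, 2 and 4 in the lists labelled SW DMSO, NS rottlerin and SW rottlerin, against 19.6%, 21.9% and 25.5% of all shared regions. At 2-fold the number in the list labelled SW rottlerin was 0, against 0.321% of all, and after division of each list by its median over shared regions it was 0, against 5.49%. No paired analysis was possible because there is 1 library per list. Peak lists hold no read depth, so regions not called in a list may be regions under its limit of detection, and a difference in column 7 cannot be set against counting error or replicate spread.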
